A study of Homo sapiens with 12 samples.

Results

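The guanylate-binding proteins were measured by 8 array probes that each match 1 gene, for 6 genes: GBP1, GBP2, GBP3, GBP4, GBP5 and the pseudogene GBP1P1. They were 6 of 18106 genes with a tested single-gene probe. The family was selected on an earlier result of these arrays, the high signal of GBP1P1 under both cytokines together, and all single-gene probes of the named genes were then taken whatever their values. GBP1P1 and GBP2 had 2 probes each and the other genes had 1. All 8 probes had a value on all 12 arrays. Probe sequences were not used here, so binding of a probe to transcripts of a related family member was not tested.

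Guanylate-binding proteins are large GTPases of the dynamin superfamily, and some of them hydrolyse GTP to GMP in addition to GDP. They are classic products of interferon gamma signalling, and NF-kB activated by tumour necrosis factor or interleukin 1 can add to this. The proteins coat intracellular bacteria and the vacuoles of parasites, and help to bring bacterial lipopolysaccharide to the inflammatory caspases. GBP1P1 does not encode a full guanylate-binding protein and lies in the same gene cluster.

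The cells were T-HESC, human stromal cells of the endometrium kept growing by telomerase. After 24 h without serum, cultures received TNF (tumour necrosis factor alpha, 5 ng/ml) and IL1 (interleukin 1 beta, 1 ng/ml) together, TNF alone at 5 ng/ml, IL1 alone at 1 ng/ml, or vehicle, for 48 h. Each of the 4 groups had 3 arrays, from passage 13 (replicate 1), passage 28 (replicate 2) and passage 15 (replicate 3). All groups share 1 immortalised line and the serum starvation, so the replicates are passages of 1 line. The p-values measure the spread between arrays of a group, in which passage, culture and array are mixed. The question addressed was which genes differ in endometrial stromal cells exposed to either cytokine or to both.

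Values are log2 intensities, on which 0 is close to the middle probe of an array: array medians lay between 0.04 and 0.09. Each array gave 52944 to 53507 positive values, and the number of arrays per group limits the precision. Along the first principal component (22.6% of the variance) 3 arrays lay apart, vehicle replicate 3 (score 171), TNF replicate 3 (68.7) and IL1 replicate 2 (53). Vehicle replicate 1 lay at −84.8 and the other 8 between −33.8 and −18.2. Results without the 3 arrays that lay apart still hold vehicle replicate 1. Its limma array quality weight was 0.312, beside 0.174 for vehicle replicate 3, 0.499 for TNF replicate 3 and 0.466 for IL1 replicate 2. Of 12 stromal and fibroblast marker genes 10 were measured, and all 10 lay above the array median. The leukocyte markers PTPRC, CD14, ITGAM and LYZ lay below it, the other 2 of the 6 measured lay above it, and the summed intensity of the 6 was 8.06 to 8.83 with TNF+IL1, 6.29 to 7.27 with TNF, 4.91 to 7.25 with IL1 and 5.19 to 8.1 with vehicle. Of 5 endothelial markers VWF, CDH5 and KDR lay below the median, and PECAM1 (mean log2 3.53) and TEK (1.73) lay above it. The 5 measured epithelial markers summed to 38 to 39.5 with TNF+IL1, 58.3 to 106 with TNF, 25.3 to 63.7 with IL1 and 86.1 to 120 with vehicle. EPCAM lay below the median, and KRT8, KRT18, KRT19 and MUC1 lay above it. KRT18 fell with TNF+IL1 by 1.58 on the log2 scale (limma, adjusted p = 0.0447). The part of these marker levels in the results was not tested. In bulk RNA, fewer cells of a type and less RNA per cell cannot be told apart.

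In the RefSeq annotation the family lies in 1 run on chromosome 1, in the order GBP3, GBP1, GBP2, GBP7, GBP4, GBP5, GBP6 and GBP1P1. Promoter sequences in the RefSeq table (GRCh38.p14) matched 3 of the 6 genes, GBP1, GBP3 and GBP4, and are shown because interferons reach this family through short promoter motifs. Each runs 5′ to 3′ on the minus strand of chromosome 1, from 250 bases before the transcription start to 50 after it. Capitals mark the core of the interferon-stimulated response element, TTTC, any 2 bases and TTTC again. The positions are chr1:89065159-89065458 for GBP1, chr1:89022817-89023116 for GBP3 and chr1:89198893-89199192 for GBP4.
GBP1: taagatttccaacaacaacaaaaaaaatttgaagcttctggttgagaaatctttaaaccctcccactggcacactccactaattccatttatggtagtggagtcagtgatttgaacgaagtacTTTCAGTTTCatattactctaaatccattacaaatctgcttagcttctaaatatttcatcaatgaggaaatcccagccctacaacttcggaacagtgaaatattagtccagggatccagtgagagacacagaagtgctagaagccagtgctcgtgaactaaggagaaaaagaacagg
GBP3: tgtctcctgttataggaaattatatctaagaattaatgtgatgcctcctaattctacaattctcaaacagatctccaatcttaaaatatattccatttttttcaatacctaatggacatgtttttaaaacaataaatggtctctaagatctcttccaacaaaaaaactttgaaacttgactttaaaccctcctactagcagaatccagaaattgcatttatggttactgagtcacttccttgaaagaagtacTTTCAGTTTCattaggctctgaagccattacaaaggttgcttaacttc
GBP4: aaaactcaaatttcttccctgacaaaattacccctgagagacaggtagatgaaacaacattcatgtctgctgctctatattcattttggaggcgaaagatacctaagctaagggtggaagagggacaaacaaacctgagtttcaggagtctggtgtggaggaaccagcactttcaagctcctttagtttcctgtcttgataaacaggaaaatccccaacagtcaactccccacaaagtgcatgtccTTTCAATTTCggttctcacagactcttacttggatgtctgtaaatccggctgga

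Each of the 3 promoters held 1 match to that core, searched on both strands, and 3.57% of the 35116 promoters in the table held at least 1. The match spanned bases −127 to −118 from the start in GBP1, 3 to 12 in GBP3 and −4 to 6 in GBP4. The core matches in GBP1 and GBP3 lay within the longest run of letters these promoters share, 19 bases, while GBP1 and GBP4 shared at most 9 in a row and GBP3 and GBP4 at most 8. The gamma-activated site TTCNNNGAA, also searched on both strands, was found in GBP3 at −15 to −7 and in neither of the others, against 7.66% of all promoters. The NF-kB consensus was found in GBP4 at −45 to −36 on the other strand and in neither of the others, against 11.3% of all promoters. No motif overlapped another in these windows. These are matches of letters, and no binding was measured.

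GBP1P1 stood highest with both cytokines together and lowest with vehicle. Probe 1 (matched to transcript CA309689) read 3.06, 2.78 and 2.89 with TNF+IL1, 1.50, 0.70 and 1.00 with TNF, 1.26, 0.61 and −0.30 with IL1, and −1.72, −1.36 and −2.11 with vehicle, in the order of replicates 1, 2 and 3. Every cytokine array lay above every vehicle array, and the TNF+IL1 arrays lay above all the others, while TNF and IL1 arrays overlapped. The means were 2.91 ± 0.14 with TNF+IL1, 1.07 ± 0.40 with TNF, 0.52 ± 0.79 with IL1 and −1.73 ± 0.38 with vehicle (SD, n = 3 each).

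The TNF+IL1 difference from vehicle chose the family, so it is a description: 4.64 ± 0.38 (SE) on the log2 scale, 24.9-fold, and 4.78, 4.14 and 5.00 in passages 13, 28 and 15. Without the 3 arrays that lay apart it was 4.45. With TNF alone GBP1P1 probe 1 rose by 2.80 ± 0.38 (SE), 6.95-fold over vehicle (limma, adjusted p = 0.0465), and was higher in 3 of 3 passages. That comparison uses the same vehicle arrays as the one that chose the family. The call was narrow: with the passage as a block the adjusted p was 0.0868, and without the 3 arrays that lay apart the difference was 2.64 (adjusted p = 0.254). It was also lost without any 1 of the TNF, vehicle or TNF+IL1 arrays or IL1 replicate 2, with adjusted p between 0.0266 and 0.139 over all 12 omissions. With IL1 alone the difference from vehicle was 2.25 ± 0.38 (SE), 4.77-fold, in 3 of 3 passages, and did not pass the test (limma, adjusted p = 0.225).

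The second GBP1P1 probe (matched to BC013288) had smaller differences. It read 0.39, 0.0043 and 0.23 with TNF+IL1, −0.45, −0.74 and −0.08 with TNF, −0.53, −0.57 and −1.73 with IL1, and −1.32, −1.33 and −0.41 with vehicle. The TNF+IL1 arrays again lay above all the others, but the TNF, IL1 and vehicle arrays overlapped. The difference from vehicle was 1.23 ± 0.37 (SE), 2.34-fold, with TNF+IL1, 0.60 ± 0.37 with TNF and 0.08 ± 0.37 with IL1. Levels of the 2 probes cannot be set against each other, and over the 12 arrays their log2 values had a Pearson r of 0.75.

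**Figure D1:**
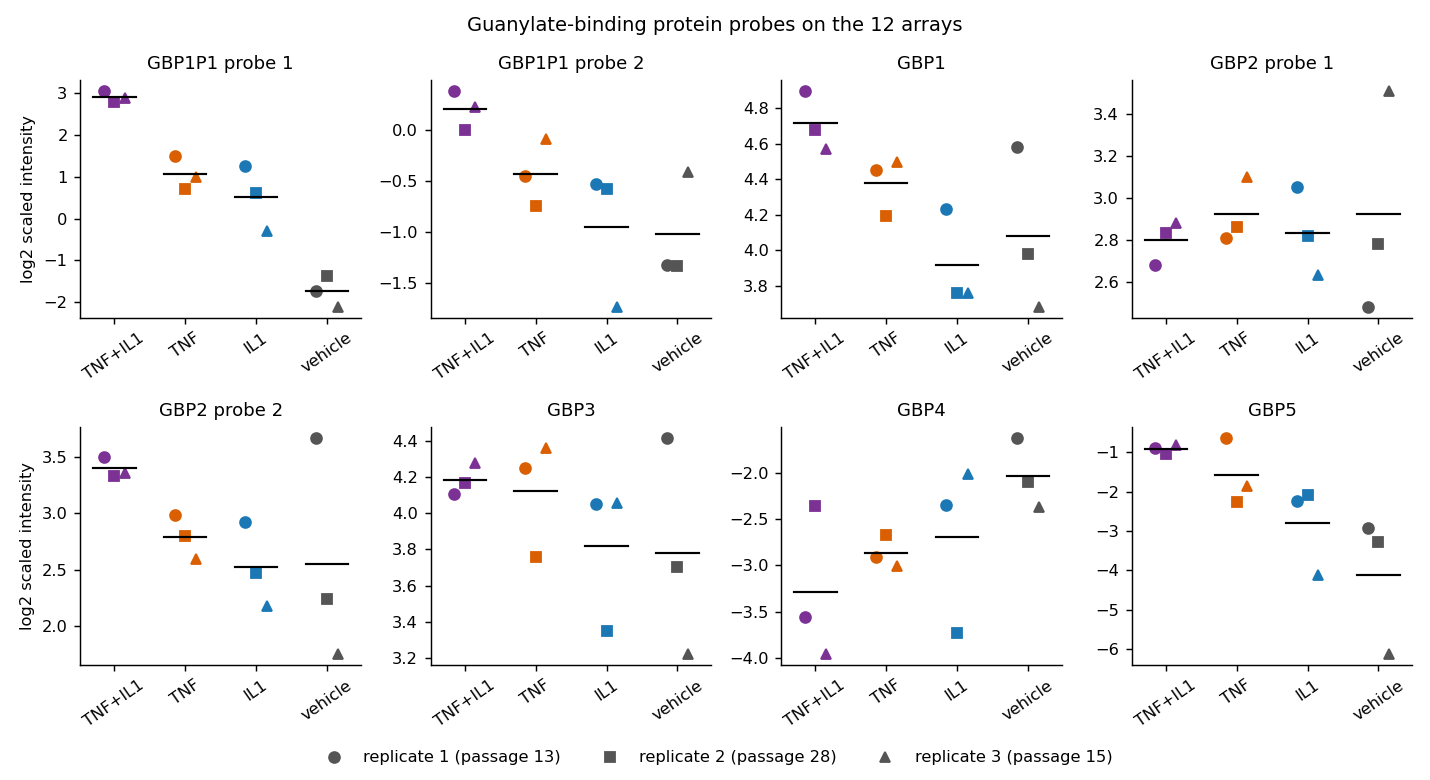
Log2 intensity of each of the 8 probes (y axis) on every array, by group, with points for arrays and bars for group means. GBP1P1 probe 1 averages 2.91 with TNF+IL1 and −1.73 with vehicle, while both GBP2 probes and GBP3 overlap between these groups.

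GBP5, a guanylate-binding protein that promotes assembly of the NLRP3 inflammasome, gave the next largest difference, from a dim probe. It read −0.89, −1.05 and −0.82 with TNF+IL1, −0.63, −2.27 and −1.87 with TNF, −2.23, −2.08 and −4.12 with IL1, and −2.93, −3.28 and −6.13 with vehicle. The TNF+IL1 and the TNF arrays lay above all vehicle arrays, and the IL1 arrays overlapped them. Only 25.6% of tested probes were dimmer, and vehicle replicate 3, an array that lay apart, was the lowest. The difference from vehicle was 3.19 ± 0.83 (SE) with TNF+IL1, which did not pass the test (limma, adjusted p = 0.175), and 2.19 without vehicle replicate 3. With TNF it was 2.52 ± 0.83 (adjusted p = 0.549), or 1.65 once the 3 outlying arrays were omitted and ranging over 1.51 to 3.11 with single arrays left out, and with IL1 1.30 ± 0.83 (adjusted p = 0.643), the last becoming −0.07 without the 3 arrays that lay apart.

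GBP1, the best studied member and a sensor that coats cytosolic bacteria, had a bright probe, with 92.4% of tested probes dimmer. It read 4.90, 4.68 and 4.57 with TNF+IL1, 4.45, 4.19 and 4.50 with TNF, 4.23, 3.76 and 3.76 with IL1, and 4.58, 3.98 and 3.68 with vehicle. The TNF+IL1 values overlapped vehicle by 1 array, vehicle replicate 1. The TNF+IL1 difference from vehicle was 0.64 ± 0.25 (SE) and did not pass the test (limma, adjusted p = 0.332). With TNF alone it was 0.30 ± 0.25 (0.10 to 0.55 with single arrays left out) and with IL1 alone −0.16 ± 0.25.

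GBP2, a further interferon-inducible member, had 2 probes that disagreed. Probe 2 (NM_004120) read 3.50, 3.33 and 3.36 with TNF+IL1, 2.98, 2.80 and 2.59 with TNF, 2.92, 2.47 and 2.18 with IL1, and 3.67, 2.24 and 1.75 with vehicle. Probe 1 (BX644834) read 2.68, 2.83 and 2.88 with TNF+IL1, 2.81, 2.86 and 3.10 with TNF, 3.05, 2.82 and 2.63 with IL1, and 2.48, 2.78 and 3.51 with vehicle. Within vehicle the passages ran in opposite order on the 2 probes. Their values less the group means had a Pearson r of −0.65 over 12 arrays, but a Spearman rho of only −0.21. The TNF+IL1 difference from vehicle was 0.84 ± 0.42 (SE) on probe 2 (limma, adjusted p = 0.432) and −0.12 ± 0.26 on probe 1 (limma, adjusted p = 0.884). With single arrays left out the value on probe 2 lay between 0.44 and 1.40.

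**Figure D2:**
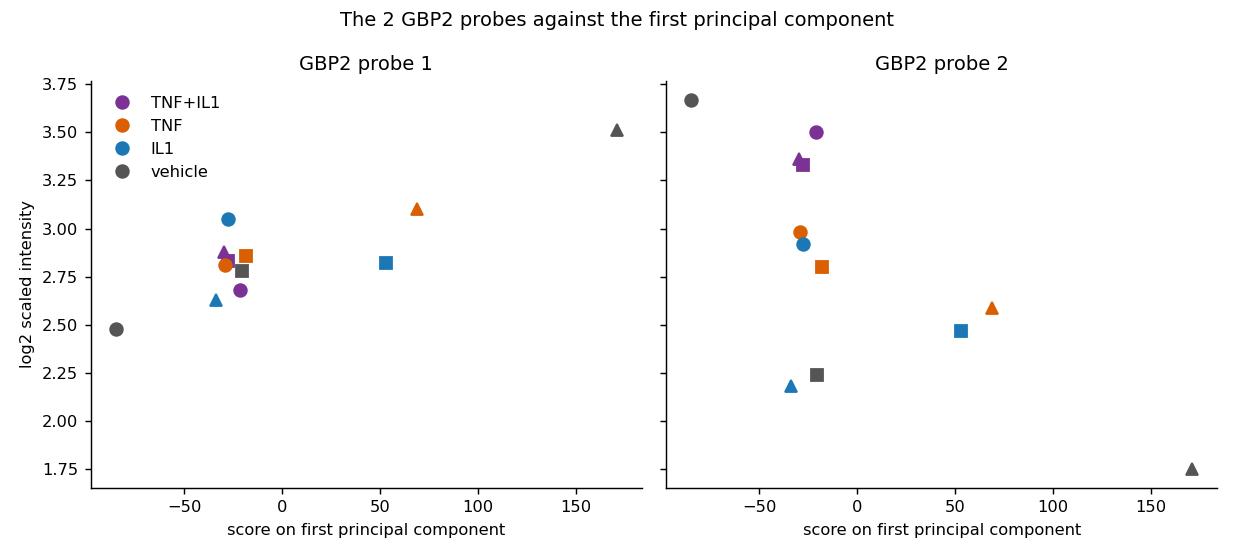
Log2 intensity of the 2 GBP2 probes (y axis, 1 panel a probe) against the score of each of the 12 arrays on the first principal component (x axis), coloured by group; circles, squares and triangles are replicates 1, 2 and 3. Vehicle replicate 3 reads 3.51 on probe 1 and 1.75 on probe 2, and vehicle replicate 1 reads 2.48 and 3.67.

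GBP3 read 4.11, 4.17 and 4.28 with TNF+IL1, 4.25, 3.76 and 4.36 with TNF, 4.05, 3.35 and 4.06 with IL1, and 4.42, 3.70 and 3.22 with vehicle. All groups overlapped vehicle, and the TNF+IL1 difference was 0.41 ± 0.32 (SE; limma, adjusted p = 0.633), or 0.12 to 0.73 with single arrays left out. With TNF alone the differences of both GBP2 probes and GBP3 lay between 0.003 and 0.34, and with IL1 alone between −0.09 and 0.04.

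GBP4, a member known to restrain interferon signalling through IRF7, had a dim probe, with 21.2% of tested probes dimmer, and its differences ran downward. It read −3.56, −2.36 and −3.96 with TNF+IL1, −2.91, −2.67 and −3.01 with TNF, −2.35, −3.73 and −2.01 with IL1, and −1.62, −2.10 and −2.37 with vehicle. The TNF arrays lay below all vehicle arrays, by 0.83 ± 0.49 (SE) on the log2 scale on average, and the TNF+IL1 difference was −1.26 ± 0.49 (SE), both without passing the test (limma, adjusted p = 0.799 and 0.327). With IL1 it was −0.67 ± 0.49, or −1.01 to −0.15 with single arrays left out.

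Across the family, 0 of the 6 probes outside GBP1P1 were called for TNF+IL1 against vehicle (limma, adjusted p under 0.05), where 0.248% of all 53671 tested probes were. An unadjusted p under 0.05 was found for 3 of the 6 (GBP1, GBP4 and GBP5), against 12.9% of all probes. For TNF against vehicle 1 of 8 was called, GBP1P1 probe 1, against 0.0466% of all probes, and 2 of 8 had an unadjusted p under 0.05, against 7.05%. These counts hold GBP1P1, whose vehicle values entered the choice of the family. Of the other 6 probes 0 were called with TNF and 1 (GBP5) had an unadjusted p under 0.05. For IL1 0 of 8 were called with limma, against 0.00559%, and 1 of 8 had an unadjusted p under 0.05, against 9.67%. That 1 was GBP1P1 probe 1, so outside GBP1P1 it was 0 of 6. Groups did not overlap for 3 of 8 probes with TNF+IL1, all higher and 2 of them the GBP1P1 probes that chose the family, against 21.3% of all probes. They did not overlap for 3 of 8 with TNF (2 higher, 1 lower) against 9.69%, and for 1 of 8 with IL1 against 12.6%. Among the 6 probes outside GBP1P1, 1 was higher (GBP5) and 1 lower (GBP4) without overlap with TNF, and 0 with IL1. The median difference of the 8 probes was 0.74 with TNF+IL1, 0.32 with TNF and 0.0047 with IL1, beside −0.13, −0.05 and −0.13 over all probes. The first of these holds the GBP1P1 values that chose the family; over the other 6 probes the medians were 0.53 with TNF+IL1, 0.27 with TNF and −0.06 with IL1.

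**Figure D3:**
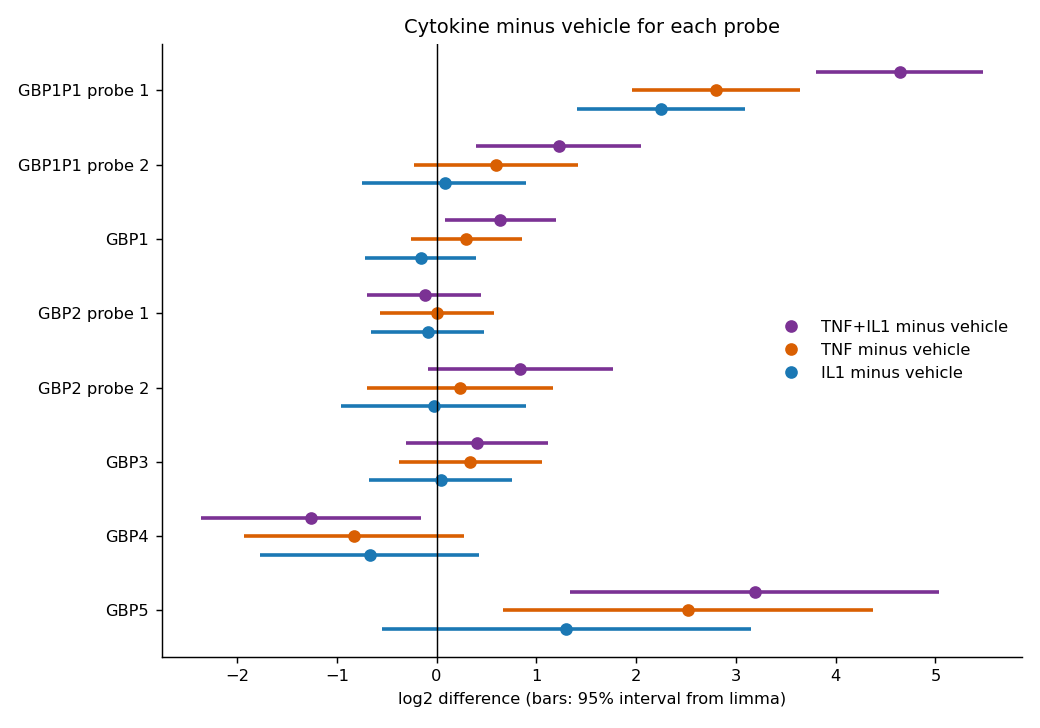
Log2 difference from vehicle for each probe (x axis) with TNF+IL1, TNF and IL1, points with 95% intervals from limma. GBP1P1 probe 1 lies at 4.64, 2.80 and 2.25, and the GBP1, GBP2 and GBP3 points lie between −0.16 and 0.84.

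The TNF+IL1 values of GBP1P1 chose the family, so its differences from TNF alone and IL1 alone are descriptions too. For probe 1 they were 1.84 ± 0.38 (SE) over TNF and 2.38 ± 0.38 over IL1, and both GBP1P1 probes were higher with TNF+IL1 without overlap. Of the other 6 probes, GBP1 and GBP2 probe 2 were higher without overlap with TNF+IL1 than with TNF, and 0 were lower. This was 2 of 6, against 21.1% of all probes counted in either direction. In that comparison 0 of the 6 were called with limma, beside 0.00186% of all probes, and 0 of 6 had an unadjusted p under 0.05, against 5.08%. Against IL1 alone, TNF+IL1 gave higher values without overlap on 4 of the 6 probes and lower ones on 0. The share of all probes, in either direction, was 14.3%. The exceptions among the 6 were GBP2 probe 1 and GBP4, which overlapped. The TNF+IL1 minus IL1 differences were 0.80 ± 0.25 (SE) for GBP1, 0.87 ± 0.42 for GBP2 probe 2, 0.37 ± 0.32 for GBP3 and 1.89 ± 0.83 for GBP5. With limma 0 of the 6 were called, nor was any probe on the array (0%), and 2 of 6 (GBP1 and GBP5) had an unadjusted p under 0.05, against 4.37% of all probes.

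TNF alone and IL1 alone were not told apart on any member: 0 of 8 were called with limma, 0 had an unadjusted p under 0.05 and 0 were free of overlap, beside 0% called and 14.3% free of overlap over all probes. For GBP1P1 probe 1 the TNF minus IL1 difference was 0.54, with a 95% interval of −0.30 to 1.39. The interaction, which asks whether the joint difference departs from the sum of the single ones, was called for 0 of the 6 probes outside GBP1P1 with limma and for 0% of all probes, and 0 of 6 had an unadjusted p under 0.05, against 3.59% of all probes. For GBP1P1 probe 1 it was −0.41 ± 0.53 (SE), a description since it uses the TNF+IL1 values.

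Members moved with the array differences in opposite ways. After group means were taken off, the correlation with the first principal component over the 12 arrays was 0.86 for GBP2 probe 1 and 0.71 for GBP1P1 probe 2, but −0.75 for GBP2 probe 2, −0.70 for GBP3, −0.63 for GBP5, −0.62 for GBP1, −0.49 for GBP4 and −0.24 for GBP1P1 probe 1. On the same scale GBP1 and GBP2 probe 2 had r = 0.88 (Spearman rho 0.66), GBP1 and GBP3 0.79 (0.69), and GBP1P1 probe 1 and GBP5 0.77 (0.80). These values share the arrays and their scaling and are descriptions.

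Genes outside the family whose log2 values ran most like a member's over the 12 arrays were sought among 14189 brighter single-gene probes. For GBP1P1 they were WTAP (r = 0.99), a subunit of the RNA m6A methyltransferase complex, TCIM (0.96) and the growth factor FGF2 (0.95), with TNF+IL1 differences from vehicle of 1.81, 3.30 and 1.40. For GBP5 they were LMCD1, GSAP and the interferon-induced IFI44L, all at 0.94, with differences of 1.23, 1.66 and 3.78. The genes were picked by their values on all 12 arrays, TNF+IL1 included, so these differences follow in part from the picking and are descriptions. GBP3 ran most like PLK2 (0.96), the nuclear body protein SP100 (0.95) and the viral RNA sensor RIGI (0.92). GBP1 ran most like GPD2 (0.96), EEA1 and PPP3CC (both 0.93), and GBP2 probe 1 like MANBA, CELF2 and PTGES2-DT (all 0.96). For GBP4 the values were lower, RAP1A at 0.86, AGO1 at 0.84 and BICD1 at 0.83. After group means were taken off, r was 0.88 to 0.95 for the genes of GBP1, 0.96 to 0.97 for GBP2 probe 1 and 0.95 to 0.96 for GBP3. These matches also ran between arrays of the same group, but the genes were picked by r over the same 12 arrays. High values on this scale thus follow in part from the picking and are descriptions. On that scale r was 0.86 for WTAP, 0.47 for TCIM and 0.86 for FGF2 with GBP1P1.

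No called difference was found around the cluster. The 5 measured flanking genes GTF2B, KYAT3, RBMXL1, LRRC8B and LRRC8C had TNF+IL1 differences from vehicle of −0.18 to 0.37, and 0 of 5 were called with limma or had an unadjusted p under 0.05 in any comparison with vehicle. GBP6, the cluster member next to GBP1P1, read −3.61, −4.14 and −2.11 with TNF+IL1, −4.01, −2.51 and −3.16 with TNF, −2.73, −2.07 and −3.48 with IL1, and −2.25, −1.68 and −3.69 with vehicle, all overlapping.

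Gene lists around the family are given by 1 probe a gene. Over the 18106 genes 0.348% were called with TNF+IL1, 0.0773% with TNF and 0.0110% with IL1. The median differences were −0.10, −0.02 and −0.15. For the list counts at an unadjusted p under 0.05, the share over genes is not given here. Over all 53671 tested probes, which include probes without a gene, that share was 12.9% with TNF+IL1. The list named interferon gamma pathway also holds genes of type I interferon signalling, among them IFNB1, IFNAR1 and IFNAR2. Its counts and medians are therefore not of interferon gamma alone. In this list 13 of 16 genes were measured, and 0 were called with TNF+IL1, with a median of 0.40. The 2 at an unadjusted p under 0.05 were IFNAR1 (0.63 ± 0.28, SE) and IFNAR2, both type I receptor chains. The interferon gamma receptor chains IFNGR1 and IFNGR2 had −0.52 and 0.57. The largest differences were those of the type I interferon receptor chain IFNAR2 (1.15 ± 0.23, SE; limma, adjusted p = 0.0962), STAT3 (0.92) and interferon gamma itself, IFNG (−0.66 ± 0.58; 0.675). The IFNG probe was dim, with a mean log2 of −1.81, which limits what its difference shows. Of 9 JAK-STAT feedback genes 0 were called and 0 had an unadjusted p under 0.05, with a median of 0.03. Their largest differences were SOCS3 at 0.67, PIAS1 at −0.58 and PTPN6 at 0.49 ± 1.60 (SE). The SOCS3 and PTPN6 probes were dim, with mean log2 of −1.45 and −3.65.

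Of 22 measured interferon gamma targets 1 was called higher with TNF+IL1, the leucine aminopeptidase LAP3 (1.81 ± 0.24, SE; limma, adjusted p = 0.0181). An unadjusted p under 0.05 was found for 7 of the 22, beside 12.9% of all probes, an unlike set, and the list median was 0.81. The LAP3 call was lost without any 1 of the TNF+IL1 arrays, with adjusted p of 0.0612, 0.0939 and 0.093, and without the 3 arrays that lay apart (0.069). Of 22 type I interferon genes 12 had an unadjusted p under 0.05 with TNF+IL1, and the median was 0.79. The 4 called, all higher, were BST2, which tethers budding virus (4.10 ± 0.39, SE; limma, adjusted p = 0.0047), EPSTI1 (2.53 ± 0.30; 0.00992), IFI27 (3.61 ± 0.51; 0.0252) and IFI44L (3.78 ± 0.61; 0.0447). With the passage as a block the adjusted p was 0.0711 for IFI27 and 0.0508 for IFI44L, while IFI44 (1.84 ± 0.31) passed at 0.0378, against 0.0533 without the block; IFI44 is named for this change, seen in its values. Without the 3 arrays that lay apart it was 0.0597 for BST2 and EPSTI1 and 0.0878 for IFI44L. Of single arrays left out, IFI44L kept its call only without vehicle replicate 1, IFI27 lost it without vehicle replicate 2 or any TNF+IL1 array, and EPSTI1 lost it without TNF+IL1 replicate 2 (adjusted p = 0.0573). Of 13 NF-kB genes 10 had an unadjusted p under 0.05 with TNF+IL1, and the median was 1.68. The 2 called, both higher, were the mitochondrial superoxide dismutase SOD2 (4.77 ± 0.29, SE; limma, adjusted p = 0.000518) and the feedback ubiquitin editor TNFAIP3 (3.16 ± 0.46; 0.0274). TNFAIP3 was not called without any 1 of the TNF+IL1 arrays, vehicle replicate 2 or 3, or IL1 replicate 3, at adjusted p up to 0.111, nor without the 3 arrays that lay apart (0.0796).

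Of 16 measured effectors and partners of the guanylate-binding proteins 0 were called and 4 had an unadjusted p under 0.05, with a median of −0.01. The largest differences were those of the ubiquitin ligase RNF213 (1.48 ± 0.54, SE; limma, adjusted p = 0.298), APOL3 (0.94) and CASP4, the caspase that binds lipopolysaccharide (0.86). Of 15 other large GTPases 0 were called and 2 had an unadjusted p under 0.05, with a median of −0.05. The antiviral MX1 (2.12 ± 0.39, SE; adjusted p = 0.0774) and MX2 (1.21) were highest, and IRGC had −0.85.

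With TNF alone the list medians were 0.34 for the interferon gamma pathway list, which includes type I genes, and 0.67 for interferon gamma targets. They were 0.77 for type I interferon genes and 1.27 for NF-kB genes, and SOD2 and BST2 were the genes called. Both calls were lost with the compared groups only and without the 3 arrays that lay apart, where 0 probes of the whole array were called. With IL1 alone the list medians were 0.14, 0.44, −0.01 and 0.75 in the same order, and SOD2 was called (3.49 ± 0.29, SE; limma, adjusted p = 0.0123), a call lost with the passage as a block (adjusted p = 0.0594). That call was also lost with the compared groups only and without the 3 arrays that lay apart. The same held without vehicle replicate 1, TNF+IL1 replicate 1 or TNF+IL1 replicate 3, with 0 probes of the whole array called in each case. All of these comparisons share the vehicle arrays with those of the family.

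**Figure D4:**
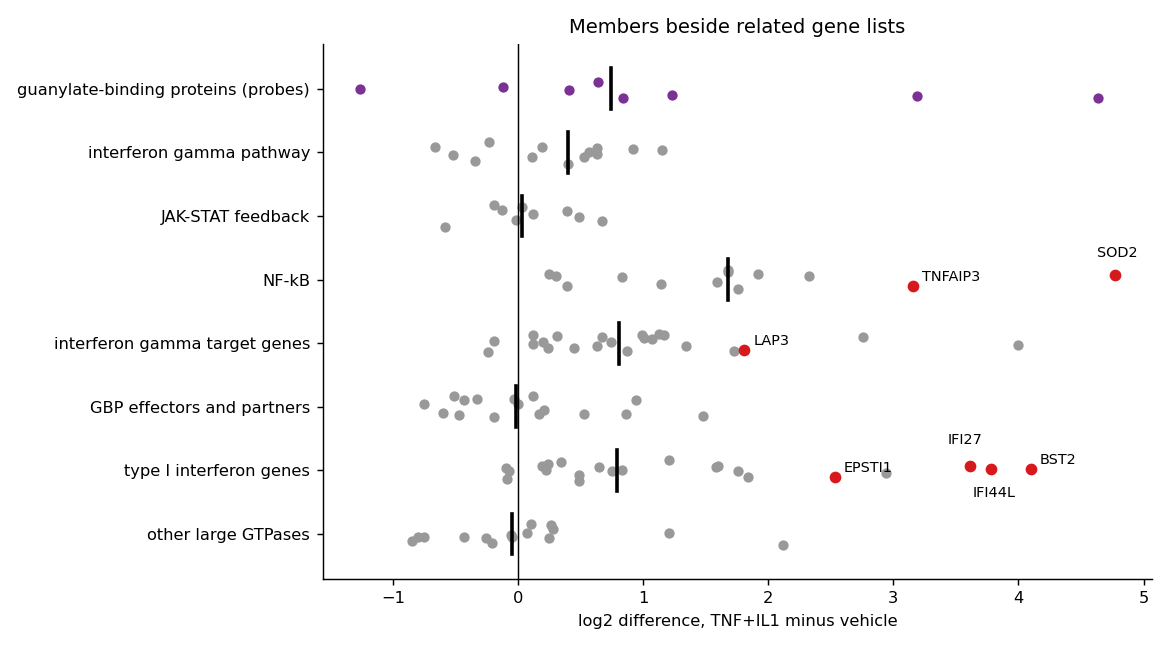
Log2 difference, TNF+IL1 minus vehicle (x axis), of the 8 family probes and of the measured genes of 7 lists, 1 point a probe or gene, with a black bar at each median and called genes in red. The family median is 0.74, or 0.53 without the GBP1P1 probes that chose the family. Beside it stand 0.40 for the interferon gamma pathway list, which includes type I genes, and 0.81 for interferon gamma targets. Type I interferon genes have 0.79 and NF-kB genes 1.68.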

How the data were processed

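RNA from 12 cultures was hybridised to single-colour CodeLink arrays, per the labels. The deposited values are linear intensities made by the authors; their software and normalization: not given in the sources used here. Scaling to the array median was inferred from the values. The code −9999 (0.716% of values) and values at or below 0 (1.1%) were set to missing before log2. Of 54359 probes 53671 had at least 2 values in each of 4 groups and were tested; the gene table gave 1 gene for 23472, several for 905 and none for 29982, and symbols were updated by Entrez identifier for 23434. Array medians spanned 0.05 (log2), below the 0.1 at which scaling would have been added.

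One limma model (version 3.58.1, R 4.3.3) of the 4 group means used every array, leaving 8 residual degrees of freedom. Its p-values were Benjamini-Hochberg adjusted over all probes, with calls at 0.05. With 3 arrays against 3, exact permutation p-values cannot go below 0.1. The method was tested on simulated data. Members and lists were chosen with earlier results of these data known. Named genes were all member probes, the called genes of each list or otherwise up to 3 with the largest TNF+IL1 difference, by the brightest probe, and the 3 probes most correlated with each member. The labels give same-numbered arrays the same passage; their deviations from group means had a mean r of 0.00715 (−0.196 to 0.31) over 18 pairs. Alternatives were quantile normalization, an offset, filters on dim or incomplete probes, 1 probe per gene, a trended robust prior, array weights, the passage block, the compared groups alone, and leaving out arrays. The alternatives for list genes were added after seeing the data. Some items are not reported here.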

Additional observations from a re-analysis of the deposited data

How the results depend on the processing

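Over 63 differences and their alternatives 1357 values were computed; 57 had the opposite sign, 0 of them for a called difference. The 1 member called with TNF against vehicle, GBP1P1 probe 1, was 0 under quantile normalization, array weights, the passage as a replicate block, the compared groups only and without the 3 arrays that lay apart, and 0 to 1 when single arrays were left out; its difference stayed between 2.55 and 3.00 (adjusted p 0.00863 to 0.479). Over all probes, calls for TNF+IL1 against vehicle numbered 133 as reported and 24 (compared groups only) to 1677 (array weights) under the alternatives; for TNF 25 and 0 to 57, for IL1 3 and 0 to 10, for TNF+IL1 against TNF 1 and 0 to 56, against IL1 0 and up to 50, for TNF against IL1 0 and up to 4, and for the interaction 0 and up to 2. The block changed no other member's call; of the list genes it ended the calls of IFI27 and IFI44L with TNF+IL1 and of SOD2 with IL1, and added IFI44. With the compared groups only, list calls with TNF+IL1 were lost for TNFAIP3 (adjusted p = 0.0796), LAP3 (0.141), IFI27 (0.203) and IFI44L (0.22), and IFI44L also under quantile normalization (0.0593). With array weights the count for TNF+IL1 against IL1 was 1, GBP1P1 probe 1 (adjusted p = 0.0318), whose TNF+IL1 values chose the family. Signs turned as follows, by setting. Quantile normalization: IL1 minus vehicle GBP1 0.05, GBP2 probe 1 0.05 and probe 2 0.09, TNF minus IL1 GBP2 probe 1 −0.04, interaction GBP3 −0.02. Array weights: TNF+IL1 minus vehicle GBP2 probe 1 0.01, IL1 minus vehicle GBP2 probe 2 0.02, TNF+IL1 minus IL1 GBP2 probe 1 0.04, interaction GBP1P1 probe 1 0.02, GBP3 −0.11, GBP4 −0.16 and GBP5 0.31. Without the 3 arrays that lay apart: GBP2 probe 1 0.17 for TNF+IL1 minus vehicle, GBP2 probe 2 −0.07 and GBP3 −0.06 for TNF minus vehicle, GBP2 probe 1 0.21, GBP3 −0.0038 and GBP5 −0.07 for IL1 minus vehicle, GBP2 probe 1 −0.00059 and GBP3 −0.05 for TNF minus IL1, GBP4 −0.18 and GBP5 0.60 for the interaction. Leaving out single arrays gave, for TNF+IL1 minus vehicle, GBP2 probe 1 −0.35 to 0.17; for TNF minus vehicle, GBP2 probe 1 −0.22 to 0.29 and probe 2 −0.17 to 0.79; for IL1 minus vehicle, GBP1P1 probe 2 −0.13 to 0.47, GBP1 −0.36 to 0.09, GBP2 probe 1 −0.31 to 0.20 and probe 2 −0.43 to 0.53, and GBP3 −0.24 to 0.36. It gave, for TNF minus IL1, GBP2 probe 1 −0.01 to 0.20 and GBP4 −0.68 to 0.18; for TNF+IL1 minus TNF, GBP3 −0.11 to 0.18; for TNF+IL1 minus IL1, GBP2 probe 1 −0.14 to 0.07; for the interaction, GBP2 probe 1 −0.33 to 0.18, GBP3 −0.30 to 0.31, GBP4 −0.28 to 0.58 and GBP5 −1.28 to 0.38. The cause of these turns was not tested. The dim GBP4 and GBP5 probes limit what their differences show.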
